A study of Mus musculus with 8 samples.

Results

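The comparison set splenic B cells of 3 Eµ-PRMT5/TCL1 double transgenic mice against those of the only Eµ-TCL1 mouse in the same bulk RNA-seq count matrix. The paper's methods give 4 Eµ-TCL1 mice for its low-input RNA-seq, but the matrix holds only 1 such column. The members were chosen by genotype label alone. They were 4 of the 8 libraries of the matrix, and the other 4 came from Eµ-PRMT5 mice. Of 24902 rows, 17452 held a value in all 4 libraries and 15890 of these passed the expression filter. All 4 mice were labelled C57BL/6N and all carried the Eµ-hTCL1 transgene. The 3 double transgenic mice also carried Eµ-hPRMT5, a human PRMT5 cDNA placed behind a mouse VH promoter and the IgH-µ enhancer, so that expression of both transgenes was directed to B lineage cells. By the methods, the Eµ-TCL1 strain was homozygous and kept on C57BL/6 J. The paper made its double transgenic model from the Eµ-PRMT5 founder line it chose for full study, and also describes crosses from other founder lines. The line behind each of these 3 mice was not given in the sources used here. Spleens were taken at early removal criteria (ERC), the point at which sick animals had to be euthanised, and the labels state a pan-B isolation kit. The ages of these 4 mice were not given in the sources used here. With 1 Eµ-TCL1 mouse, genotype and the individual mouse cannot be told apart, so the values below describe where that library lay against the range of the other 3.

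PRMT5 is a type II arginine methyltransferase that places symmetric dimethyl marks on histones, spliceosomal Sm proteins and other substrates, and it works in a complex with WDR77. TCL1 is a coactivator of AKT, and mice that express it in B cells develop an expansion of CD5-positive B cells that resembles chronic lymphocytic leukaemia (CLL). The question of the cross was what PRMT5 adds to this CLL-like disease.

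The mouse Prmt5 gene was measured at 114, 121 and 135 CPM in double transgenic mice 1, 2 and 3 and at 70.9 CPM in the Eµ-TCL1 mouse. CPM here are counts scaled to the size of the library, with TMM factors that correct for differences in composition. The Eµ-TCL1 library was below all 3, with a difference of 0.79 in mean log2(CPM + 1), the scale used for all differences below (double transgenic minus Eµ-TCL1). How far reads of the human cDNA entered this row was not tested. Mouse Tcl1 held NA in at least 1 library and was not compared. The B cell identity of the sort was checked on its markers. Cd79a, a signalling chain of the B cell receptor, was at 1059.7, 1484 and 2269 CPM in the double transgenic mice and at 1571 CPM in the Eµ-TCL1 mouse. Its partner Cd79b was at 768, 1123 and 1450.5 CPM against 889 CPM. For both genes the Eµ-TCL1 value fell inside the range of the other 3.

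The libraries differed in depth and composition. Total counts were 6232700, 7290268 and 6686631 in the double transgenic mice and 3356297 in the Eµ-TCL1 mouse, and the TMM factors were 0.912 to 0.952 against 1.26. Ribosomal protein genes took 2.85% to 3.33% of counts against 1.69%, and lincRNA and antisense genes 0.413% to 0.451% against 0.854%. Any pair of double transgenic libraries differed by a median of 0.39 to 0.43 in absolute log2(CPM + 1) per gene, with 152 to 382 genes over 4-fold. Pairs of a double transgenic and the Eµ-TCL1 library differed by 0.62 to 0.66, with 574 to 639 genes over 4-fold. By the methods, the double transgenic libraries came from 3 mice.

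The Eµ-TCL1 library lay above all 3 double transgenic libraries for 5598 genes, 35.2% of those tested, and below all 3 for 5159 genes, 32.5%. A difference of at least 2-fold in addition was found for 2218 genes lower in the double transgenic mice (14.0%) and for 1609 genes higher (10.1%). At 4-fold, 160 genes were lower (1.01%) and 182 were higher (1.15%). These percentages, over all genes, are the background against which the counts for gene lists were read. Shares also differed by level and length, as given below. Of the genes past 2-fold, 42.0% were higher in the double transgenic mice. This split depended on scaling: it was 13.6% with library size alone and 20.1% with upper-quartile factors, which moved the median of all genes by -0.40 and -0.27. At 4-fold it was 53.2%, and 13.6% and 23.7% with the same alternatives. The edgeR quasi-likelihood test, in which the spread came from the 3 double transgenic mice, called 0 genes (0%) at a Benjamini-Hochberg adjusted p under 0.05 with a 4-fold change. At an unadjusted p under 0.05 it gave 1511 genes higher and 1490 lower. DESeq2 with the same thresholds called 193 genes higher and 90 lower. Without double transgenic mouse 3, edgeR called 47 higher and 19 lower, and without mouse 1 it called 5 and 14. The count of genes 4-fold lower was 274 without mouse 1.

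**Figure D1:**
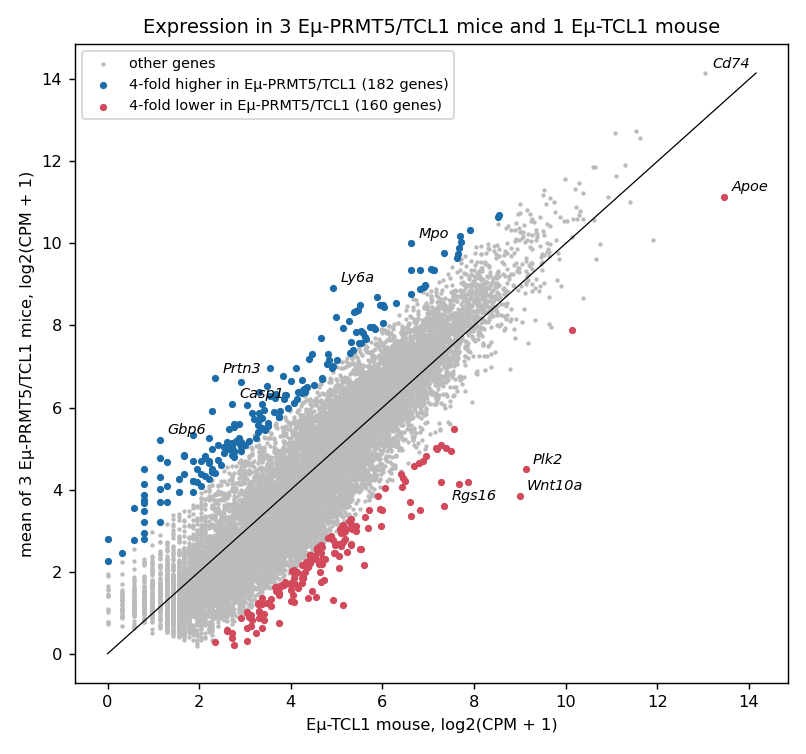
Expression of the 15890 tested genes in the Eµ-TCL1 mouse (x axis) against the mean of the 3 Eµ-PRMT5/TCL1 mice (y axis), both as log2(CPM + 1), with the line of equal expression. The 182 genes 4-fold higher (blue) and the 160 genes 4-fold lower (red) with the Eµ-TCL1 library outside the range of the 3 mice lie on either side, and most red points sit at low expression.

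The difference moved with expression level and with transcript length. When genes were divided into 10 groups by level, the median difference was between -0.54 and -0.29 in the 5 lowest groups and climbed to 0.51 in the highest. Among genes of the 4 highest groups, the median was 0.77 for the shortest of 5 length groups and 0.05 for the longest. The share of genes 2-fold higher was 22.5% in the highest level group. It was 32.1% in that shortest length group, against 10.1% of all genes. The shares for oxidative phosphorylation (22 of 70, 31.4%) and mitochondrial ribosomal proteins (16 of 53, 30.2%), described below, did not exceed this 32.1%. The median of 447 lincRNA genes was -0.62 and that of 14231 protein-coding genes was 0.02. For most lists below, a second (centred) median is therefore given relative to genes of like level and length: each member's difference minus the median of all genes in its level and length group. This centring was chosen after seeing the data. The part of depth, level and length in the results was not tested further.

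**Figure D2:**
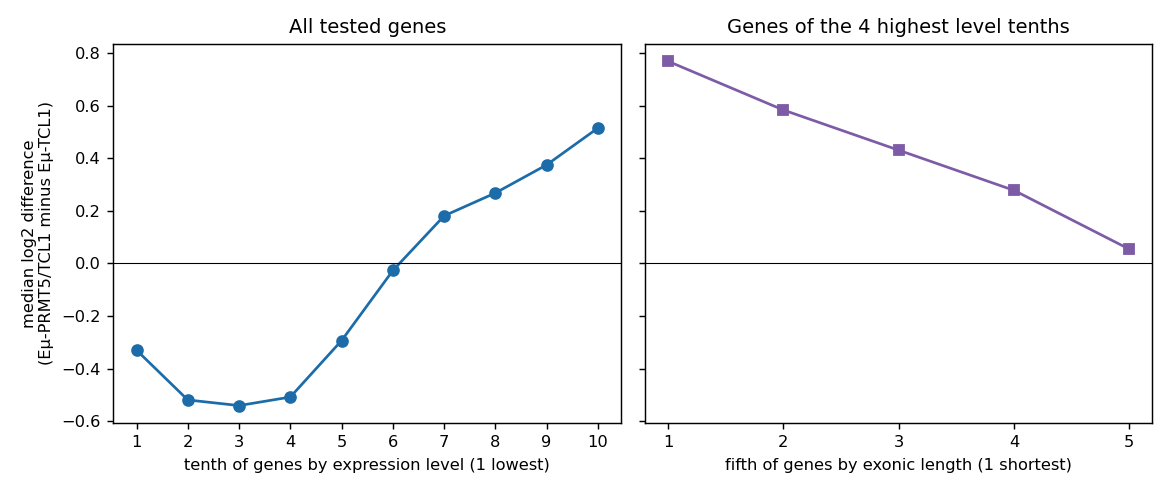
Median log2 difference (Eµ-PRMT5/TCL1 minus Eµ-TCL1) of all tested genes in 10 groups by expression level (left), and of genes in the 4 highest level groups in 5 groups by exonic length (right). The median runs from -0.33 in the lowest level group to 0.51 in the highest, and from 0.77 in the shortest length group to 0.05 in the longest.

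Ly6a, which encodes the surface antigen Sca-1 and is inducible by interferon, was among the 3 genes of largest difference of those higher in the double transgenic mice with a mean of at least 5 CPM. It was at 419, 447 and 606 CPM in the double transgenic mice and at 29.4 CPM in the Eµ-TCL1 mouse, a difference of 4.00 ± 0.28 (SD of the 3 mice). The 3 double transgenic values lay close together and far above the fourth. Ly6a lies at chr15:74994877-74998031 (GRCm38) and is protein coding. Its adjusted p was 0.106 in edgeR and 1.05e-13 in DESeq2. Casp1, the protease that matures interleukin 1β, was at 82.4, 65.2 and 56.9 CPM against 5.54 CPM, a difference of 3.38 ± 0.27. Cfp, which encodes the complement regulator properdin, was at 259, 388 and 354 CPM against 42.9 CPM. It was singled out after its values were seen, as one of the 10 genes of smallest p in DESeq2.

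The 15 genes of largest difference in this direction included interferon-induced genes and myeloid granule genes. Gbp6, an interferon-inducible GTPase, was at 62.9, 32.2 and 23.1 CPM against 1.21 CPM (5 counts). Gbp10 was at 20.6, 20.6 and 24.1 CPM against 0.723 CPM, which was 3 counts. Ifi27l2a, a type I interferon target, was at 81.0, 67.9 and 166 CPM against 6.51 CPM. Prtn3, the granule serine protease proteinase 3, was at 381, 150 and 19.0 CPM against 4.10 CPM, so its double transgenic values spread over a wide range. Prtn3, Mpo and Gm4070 overlap an exon on the other strand, and whether counting used the strand is unknown, which leaves their values open to reads of the partner. The same applies below to Gbp2, Irf7, Tap1, Psmb8, Psmb9, H2-Oa, Rps2, Nop56, Wdr12, Ccnd2, Snrpd3, Cd37, Cd22, Ptpn6, Pax5, Foxo1, Ctnnb1, Jun, Eif2ak3, Ptpn14, Clns1a, Wdr77, Cd274 and Cd3e. Reads of Gbp and Ly6 family members can be split between near-identical copies.

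**Figure D3:**
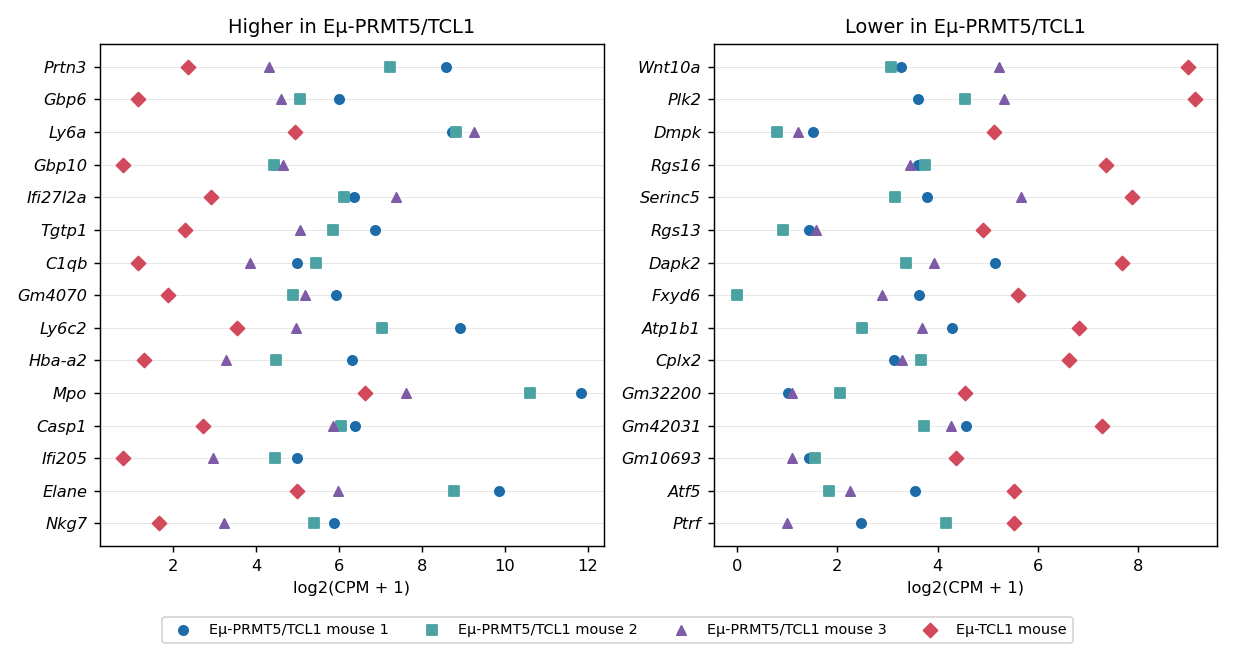
Expression (log2(CPM + 1), x axis) of the 15 genes with the largest difference in each direction, 1 point per mouse. On the left the Eµ-TCL1 mouse (diamonds) is the lowest of the 4 for every gene, and on the right it is the highest, while mouse 3 (triangles) is close to it for Mpo and Elane.

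In the other direction, the largest difference was that of Wnt10a, a secreted Wnt ligand. It was at 8.66, 7.38 and 36.4 CPM in the double transgenic mice and at 509 CPM in the Eµ-TCL1 mouse, a difference of -5.14 ± 1.19. The Eµ-TCL1 value stood alone, and mouse 3 was the highest of the others. Wnt10a lies at chr1:74791516-74804179. Plk2, a polo-like kinase and a target of p53, was at 11.2, 22.3 and 39.1 CPM against 557 CPM (-4.63 ± 0.86). It lies at chr13:110395046-110400844.

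Rgs16, a GTPase activator that ends signals from chemokine receptors, was at 11.2, 12.5 and 9.89 CPM against 162 CPM, a difference of -3.75 ± 0.15. It had the smallest adjusted p of all genes in edgeR, 0.0675. It lies at chr1:153740349-153745468 and overlaps an exon on the other strand. Rgs13, a related gene known from germinal centre B cells, was at 1.70, 0.903 and 1.98 CPM against 29.2 CPM. Dapk2, a calcium-calmodulin dependent kinase, was at 34.1, 9.33 and 14.2 CPM against 204 CPM. Cplx2, a complexin, was at 7.82, 11.7 and 8.74 CPM against 97.6 CPM. In each of these genes the 3 double transgenic values lay far below the Eµ-TCL1 value. The RGS family as a list had 2 of 11 tested members 2-fold lower, Rgs16 and Rgs13, and 2 higher. The higher ones were Rgs18, at 16.3, 11.7 and 40.2 CPM against 3.13 CPM, and Rgs14, at 96.5, 110 and 91.2 CPM against 43.1 CPM. The median was 0.18 (centred 0.20), or -0.21 with library size alone.

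The 182 genes higher in the double transgenic mice and the 160 lower ones differed in kind. Of the higher genes, 175 were protein coding, 6 carried unnamed (Gm or Rik) symbols, and their median level over the 4 libraries was 53.3 CPM. Of the lower genes, 128 were protein coding, 33 had unnamed symbols and the median level was 8.53 CPM. The pseudocount bore on the second group more: with 0.1 CPM in place of 1 there were 500 genes 4-fold lower, and with 5 CPM there were 31.

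Lists of the interferon response had some of the largest medians, both as measured and after centring. The interferon-γ inducible GTPases, which coat and disrupt vacuoles that hold pathogens, had 15 tested members. The Eµ-TCL1 library was below all 3 double transgenic libraries in 15 of 15, 13 were 2-fold higher and 0 were 2-fold lower. The median difference was 1.70, and 1.54 relative to genes of like level and length. Gbp2, a guanylate-binding protein, was at 619, 326 and 230 CPM against 60.5 CPM. Tgtp1 and Tgtp2, a near-identical pair of immunity-related GTPases, were at 115, 56.9 and 32.5 against 3.86 CPM and at 209, 117 and 76.3 against 16.4 CPM. In these 3 genes mouse 1 was highest and mouse 3 lowest. Igtp showed no such order, with 238, 269 and 265 CPM against 125 CPM. Iigp1 held NA in the Eµ-TCL1 library and was not tested.

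Type I interferon-stimulated genes gave 18 of 30 tested members 2-fold higher and 1 lower, with a median of 1.09, or 1.16 after centring. Oas1a, a sensor of double-stranded RNA, was at 40.3, 21.8 and 17.3 CPM against 2.65 CPM. Ifit3, which belongs to a family that binds foreign RNA, was at 17.7, 25.3 and 11.7 CPM against 2.65 CPM. Irf7, the transcription factor that amplifies this response, was at 54.9, 124 and 46.5 CPM against 15.7 CPM. Stat2, a subunit of the factor that carries the signal, was at 58.1, 75.0 and 80.8 CPM against 82.4 CPM, a difference of -0.22. The exception past 2-fold was Ifi44, at 2.04, 4.06 and 7.91 CPM against 12.1 CPM.

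MHC class I molecules display peptides to CD8 T cells, and their genes are induced by interferons and NLRC5. The Eµ-TCL1 library was below all 3 in 19 of 19 tested members, 16 were 2-fold higher, and the median was 1.61, or 1.07 after centring. B2m, the invariant light chain, was at 884, 742 and 754 CPM against 209 CPM (1.91 ± 0.14). H2-K1, a classical heavy chain, was at 2792, 1964 and 2234 CPM against 720 CPM. H2-Q7, a non-classical heavy chain, was at 833, 561 and 595 CPM against 97.4 CPM. The peptide supply genes went with them: Tap1, a subunit of the peptide transporter into the endoplasmic reticulum, was at 815, 563 and 541 against 196 CPM. Psmb8 and Psmb9, catalytic subunits of the immunoproteasome, were at 979, 750 and 885 against 258 CPM and at 379, 316.8 and 402 against 107 CPM. Tapbpl, which edits the peptides, differed by 0.28 only. Reads of the H2 genes can be shared between copies.

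**Figure D4:**
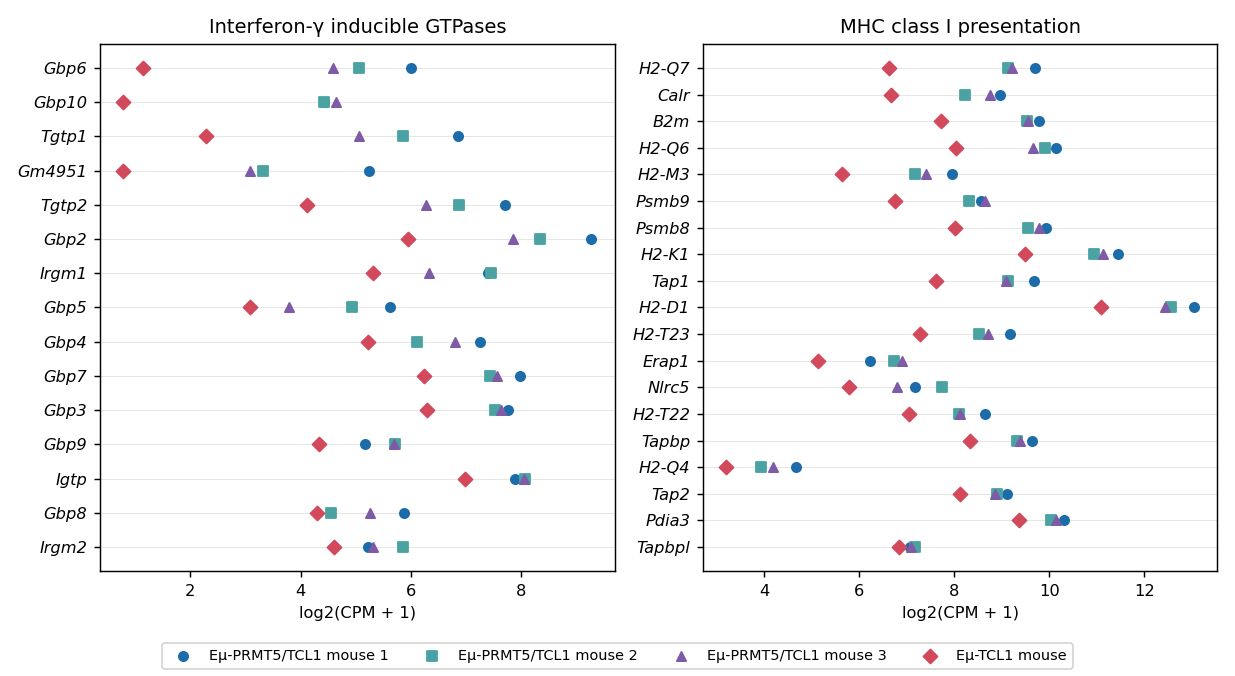
Expression (log2(CPM + 1), x axis) of the 15 tested interferon-γ inducible GTPases (left) and the 19 MHC class I presentation genes (right), 1 point per mouse, ordered by difference. The Eµ-TCL1 mouse (diamonds) is the lowest of the 4 in all 34 rows, and the double transgenic mice spread more among the GTPases than among the MHC class I genes.

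The promoters of these genes were searched for the letters GAAANNGAAA, as found in interferon-stimulated response elements, on both strands of RefSeq windows (GRCm38.p6) from 250 bases before to 50 after each start site. Of 12171 tested genes with a window, 3.87% held the letters. They were found in 9 of 9 interferon-γ inducible GTPases with a window, in 13 of 23 type I interferon-stimulated genes and in 4 of 16 MHC class I genes. Among genes 4-fold higher in the double transgenic mice, 16 of 147 (10.9%) held them, and among those 4-fold lower 3 of 121 (2.48%). A match is a description of the sequence and does not show binding. The interferon and MHC class I lists were picked by function, so their shares describe the lists and not the difference between the libraries. The genes 4-fold higher include members of these lists, such as Tgtp1, so their share is not separate from them. The windows below are shown because they belong to the members 2-fold higher with the largest differences and a match in such a window. Ifit3b, whose window had the same letters as that of Ifit3, is left out. Each is 60 bases, 5′ to 3′ on the strand of the gene, before its start site and outside annotated exons, with the matching letters in capitals.
Tgtp1, chr11:48992289-48992348, minus strand: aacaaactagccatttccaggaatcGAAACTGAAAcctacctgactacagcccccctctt
Tgtp2, chr11:49064248-49064307, minus strand: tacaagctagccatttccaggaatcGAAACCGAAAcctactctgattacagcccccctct
Oas1a, chr5:120907526-120907585, minus strand: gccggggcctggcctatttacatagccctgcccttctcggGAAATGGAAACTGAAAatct
Ifit3, chr19:34583382-34583441, plus strand: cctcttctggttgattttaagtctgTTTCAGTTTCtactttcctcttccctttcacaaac
Oas3, chr5:120777700-120777759, minus strand: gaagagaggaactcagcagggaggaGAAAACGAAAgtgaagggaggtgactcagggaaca
B2m, chr2:122147523-122147582, plus strand: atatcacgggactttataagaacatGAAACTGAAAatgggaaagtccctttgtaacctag
In Tgtp1, Tgtp2, Oas1a, Oas3 and B2m the letters stood on the strand of the gene, and in Ifit3 on the other strand. Oas1a held overlapping matches.

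Other innate immune genes were placed on the same side. Of 8 tested Ly6 family members, 4 were 2-fold higher: Ly6a, Ly6c2, Ly6i and Ly6g. Ly6c2, a monocyte antigen, ranged widely at 480, 130 and 30.3 CPM against 10.6 CPM. Ly6d and Ly6e differed by 0.17 and 0.53. Inflammasome and interleukin 1 genes had 7 of 20 members 2-fold higher and a median of 0.80, or 1.25 after centring. Besides Casp1 these were led by Casp4, a sensor of cytosolic lipopolysaccharide, at 49.8, 36.9 and 24.2 CPM against 6.03 CPM, and Gsdmd, the pore-forming protein of pyroptosis, at 159, 178 and 238 CPM against 45.6 CPM. Nlrp3 itself was at 21.1, 6.92 and 3.13 CPM against 12.3 CPM, within the range. Among MHC class II genes 9 of 17 were 2-fold higher with a median of 1.10, which was 0.36 after centring. H2-Aa was at 2719, 3468 and 3039 CPM against 1013 CPM, and H2-Oa, a subunit of the DO regulator in B cells, was at 56.1, 94.4 and 104 CPM against 8.92 CPM.

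Genes of protein synthesis and growth were also higher in the double transgenic mice, and here the centred values were smaller. Of 81 cytosolic ribosomal protein genes, 70 were 2-fold higher and 0 were 2-fold lower. Their median of 1.45 came to 0.75 relative to genes of like level and length. Rps2 was at 1461, 1319.9 and 1477 CPM against 364 CPM. Of 29 genes for ribosome assembly and the nucleolus, 19 were 2-fold higher (median 1.31, centred 0.84). Nop56, a core protein of the small nucleolar particles that guide rRNA methylation, was at 367, 379 and 586 CPM against 98.1 CPM. Npm1, the abundant nucleolar chaperone, was at 472, 467 and 541 CPM against 120 CPM (2.03 ± 0.12). Wdr12 and Rrp12, other assembly factors, differed by -0.15 and 0.02, so the list was not uniform.

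Cell cycle genes showed a difference that was largest at DNA replication. Of 32 S phase genes, 18 were 2-fold higher and 0 lower, with a median of 1.13, or 0.83 after centring. Mcm3 and Mcm2, subunits of the replicative helicase, were at 351, 217 and 464 against 41.9 CPM and at 268, 156 and 506 against 37.6 CPM. Of 30 mitotic genes, 12 were 2-fold higher and 1 lower (median 0.81, centred 0.66). Cdk1, the kinase that starts mitosis, was at 83.6, 46.4 and 84.6 CPM against 18.6 CPM. The lower member was Ttk, a spindle checkpoint kinase, at 24.98, 12.0 and 33.6 CPM against 63.4 CPM. Among 20 G1 cyclins, kinases and inhibitors, 10 were 2-fold higher and 1 lower (median 0.80, centred 0.38). Ccnd2, cyclin D2, was at 580, 533 and 888 CPM against 113 CPM. Across these lists mouse 2 was the lowest of the double transgenic mice for each gene named here. The letters GCGGGAA, a core of E2F sites, were found in 12 of 26 S phase promoters (46.2%) against 8.43% of all. That list was picked by function, so its share describes the list and not the difference between the libraries. Among genes 4-fold higher, 13 of 147 (8.84%) held the letters, near the share of all. Among those 4-fold lower, 5 of 121 (4.13%) did.

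Lists of metabolism, protein folding and turnover, and splicing also had members 2-fold higher. Glycolysis and pentose phosphate genes had 15 of 28 members 2-fold higher and 2 lower (median 1.08, centred 0.72). Ldha, lactate dehydrogenase A, was at 993, 953 and 1192 CPM against 208 CPM. Its partner Ldhb was on the other side at 11.04, 14.0 and 3.13 CPM against 18.6 CPM. Heat shock proteins and chaperones had 17 of 26 members 2-fold higher and 1 lower (median 1.18, centred 0.67). Hsp90aa1 was at 865, 545 and 591 CPM against 137 CPM. The proteasome (20 of 36, median 1.03, centred 0.31), spliceosome and SR proteins (15 of 34, 0.90, centred 0.40) and oxidative phosphorylation (22 of 70, 0.82, centred 0.12) had no member 2-fold lower, and much of each median was shared with genes of like level and length. Snrpd1 and Snrpd3, which encode Sm proteins of the kind PRMT5 methylates, were at 62.5, 45.6 and 73.2 against 12.5 CPM and at 195, 162 and 174 against 44.1 CPM.

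**Figure D5:**
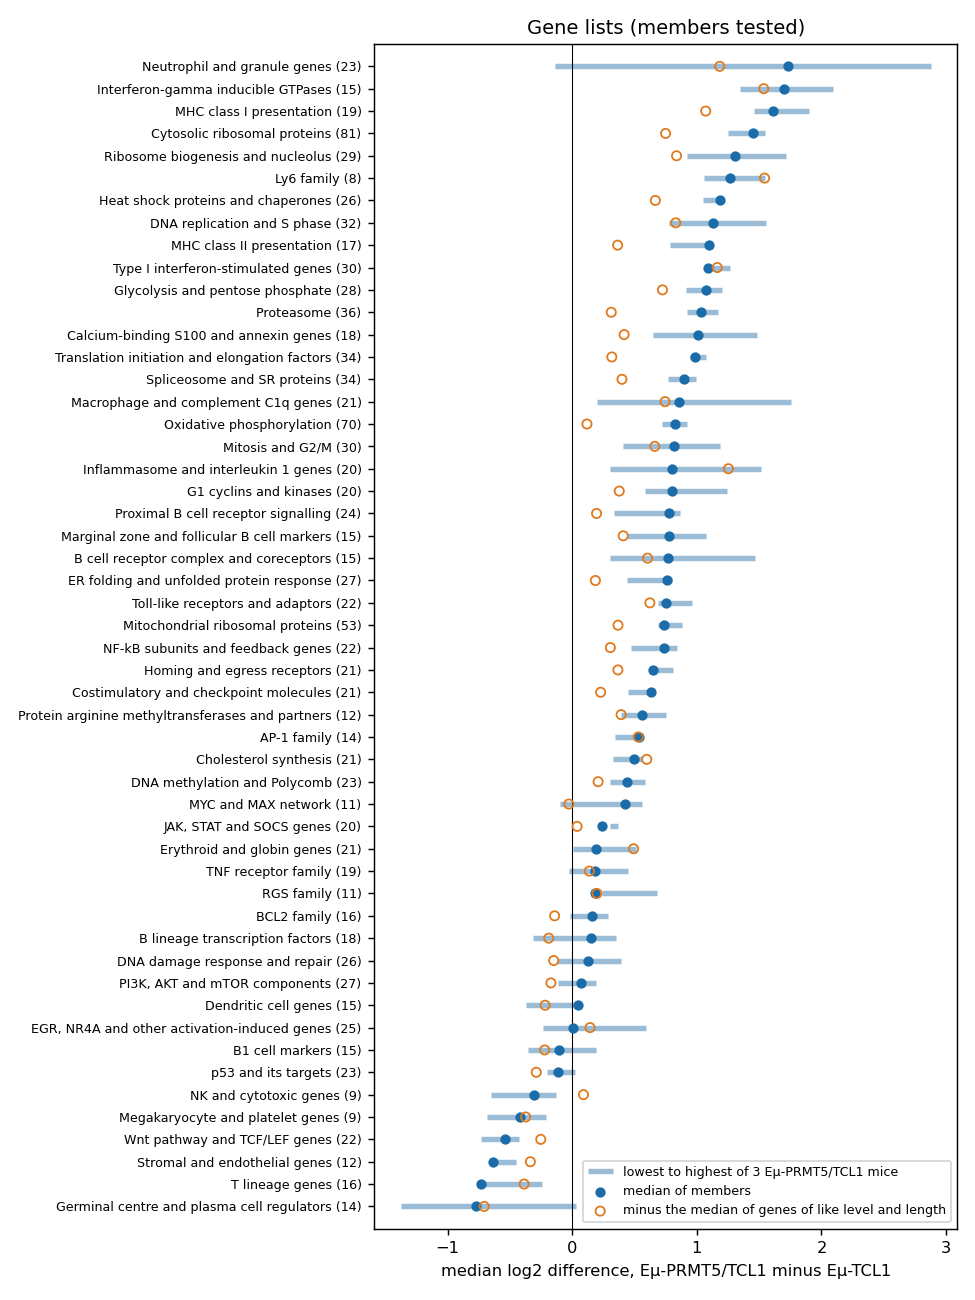
Median log2 difference (Eµ-PRMT5/TCL1 minus Eµ-TCL1, x axis) of the 52 gene lists with tested members, the number of which stands in brackets. Filled points give the median over members of the mean of the 3 mice, bars the lowest to highest median of single mice, and open circles the median relative to genes of like level and length. Of the 52 medians, 44 lie above 0, and 17 of the open circles lie above 0.5.

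B cell genes were divided. Of 15 tested members of the receptor complex and its coreceptors, 7 were 2-fold higher and 0 lower, with a median of 0.77, or 0.60 after centring. Cd37, a tetraspanin, was at 584, 809 and 1058 CPM against 197 CPM, and Cd22, an inhibitory sialic acid receptor, at 193, 222 and 857 against 101 CPM. Cd5, the marker of this CLL-like disease, was at 24.1, 60.7 and 34.3 CPM against 14.5 CPM. Cd79b differed by 0.28, inside the range. Ptpn6, the phosphatase SHP-1 that acts below inhibitory receptors, was at 918, 1196 and 1914 CPM against 238 CPM. Among 18 B lineage transcription factors the median was 0.15, but -0.19 after centring and -0.28 with library size alone, and 2 were 2-fold higher. Spib was at 536, 1459.9 and 843 CPM against 161 CPM, whereas Pax5 lay within the range at 68.3, 102 and 174 against 91.8 CPM. Foxo1 was the 1 member 2-fold lower, at 56.9, 23.9 and 58.8 CPM against 153 CPM.

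Germinal centre and plasma cell regulators formed the list with the lowest median, -0.77, and -0.71 after centring, with 6 of 14 members 2-fold lower and 0 higher. The medians of single double transgenic mice ran from -1.38 to 0.03, and the list summed to 1062, 917 and 3925 CPM against 2422 CPM, so that mouse 3 lay above the Eµ-TCL1 mouse. Prdm1, the master regulator of plasma cells (Blimp-1), was at 30.6, 52.1 and 50.6 CPM against 187 CPM (-2.09 ± 0.42). Xbp1, which drives expansion of the secretory pathway, was at 404, 299 and 556 CPM against 1319 CPM. Tnfrsf17, the receptor BCMA, was at 18.9, 10.4 and 12.2 CPM against 56.2 CPM. Jchain, the joining chain of secreted IgM, did not go with them: it was at 95.7, 65.8 and 2249 CPM against 139 CPM, with mouse 3 far above the others. Mzb1, a chaperone of IgM assembly, was also highest in mouse 3, at 257, 277 and 716 CPM against 421.5 CPM. Irf4 was at 101, 108 and 118 against 105 CPM. Of the 8 members not counted, Derl3 and Sdc1 passed 2-fold with the Eµ-TCL1 value inside the range.

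Of 22 Wnt pathway and TCF/LEF genes, 7 were 2-fold lower and 0 higher, with a median of -0.54, or -0.25 after centring. Tcf7, a nuclear effector of the pathway that is also a T lineage gene, was at 5.44, 4.21 and 8.90 CPM against 25.1 CPM, and Ctnnb1, β-catenin, differed by 0.37. Of 22 NF-kB subunits and feedback genes, 6 were 2-fold higher and 0 lower, and the Eµ-TCL1 library was below all 3 in 15 and above all 3 in 0 (median 0.73, centred 0.31). The largest difference was that of Nfkbie, an inhibitor of the pathway, at 269, 259 and 221 CPM against 52.1 CPM. Socs2, a feedback inhibitor of cytokine receptors, was lower at 17.2, 14.4 and 15.001 CPM against 65.8 CPM (-2.02 ± 0.12), while Socs3 was higher at 43.2, 28.4 and 42.0 against 14.9 CPM. Among immediate early genes, Jun was at 137, 110 and 960 CPM against 34.2 CPM and Egr1 at 97.2, 305 and 605 against 798 CPM. Both were highest in mouse 3 of the double transgenic mice. Myc was at 150, 230 and 509 CPM against 75.4 CPM, and Mycn at 2.38, 3.61 and 1.32 CPM against 14.9 CPM. In the BCL2 family, Bcl2l1, which encodes the survival protein BCL-XL, was at 41.8, 9.48 and 19.6 CPM against 84.1 CPM.

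Toll-like receptors and adaptors had 9 of 22 members 2-fold higher and 0 lower (median 0.75, centred 0.62). Tlr7, a receptor for single-stranded RNA in B cells, was at 28.7, 37.8 and 57.9 CPM against 16.4 CPM. S100, annexin and related genes had 9 of 18 higher and 0 lower (1.01, centred 0.42), with Lgals1, the lectin galectin-1, at 535, 385 and 437 CPM against 117 CPM. Translation factors had 16 of 34 higher (0.98, centred 0.32), and mitochondrial ribosomal proteins 16 of 53 (0.74, centred 0.37), both with 0 lower. Cholesterol synthesis had 5 of 21 higher and 0 lower (0.50, centred 0.60). Insig1, which holds back activation of sterol synthesis, was at 55.9, 54.9 and 49.6 CPM against 13.7 CPM, with the 3 double transgenic values close together.

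Mixed lists held members in both directions, but the counts of lower members were near the share over all genes. In the next 3 lists, 11.1%, 14.3% and 13.3% of members were 2-fold lower, against 14.0% of all genes. Higher members made up 29.6%, 28.6% and 33.3%, against 10.1%. Endoplasmic reticulum folding genes had 8 of 27 members 2-fold higher and 3 lower (median 0.76, centred 0.19). Calr, the chaperone calreticulin, was at 499.5, 301 and 430 CPM against 101 CPM, while Eif2ak3, the stress sensor PERK, was at 43.5, 55.8 and 44.5 CPM against 177 CPM. Homing and egress receptors had 6 of 21 higher and 3 lower (0.65, centred 0.37). Ccr1, a chemokine receptor, was at 119, 113 and 83.2 CPM against 24.6 CPM, and Cxcr4, the receptor that retains B cells in bone marrow and the germinal centre dark zone, was at 34.3, 19.1 and 8.90 CPM against 69.9 CPM. B1 cell markers, fixed as genes of the lineage that CLL-like cells of these mice resemble, had 5 of 15 higher and 2 lower (-0.11, centred -0.22). Zbtb32, a transcriptional repressor, was at 516, 957 and 828 CPM against 266 CPM, and Ptpn14 at 17.0, 35.1 and 78.1 CPM against 116 CPM. For genes of p53, JAK and STAT, BCL2, DNA repair, PI3K and the MYC network, members 2-fold higher and lower were 1 to 3 in each direction. The higher ones made up 3.70% (PI3K, 1 of 27) to 27.3% (MYC network, 3 of 11), against 10.1% of all genes. The lower ones made up 3.70% (PI3K, 1 of 27) to 18.75% (BCL2, 3 of 16), against 14.0%. With library size alone the medians of all these lists but that of p53 turned from above 0 to below it.

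PRMT5 partners and related enzymes were measured as a group of 12. Clns1a, which brings Sm proteins to PRMT5, was at 170, 184 and 202 CPM against 78.8 CPM, and Wdr77 at 29.4, 36.0 and 45.0 against 17.6 CPM. These were the 2 members 2-fold higher. Coprs, a cofactor for histone H4, was the 1 member 2-fold lower, at 7.48, 7.07 and 5.44 CPM against 22.4 CPM. These counts were 16.7% and 8.33% of the 12, near the 10.1% and 14.0% of all genes. The median of the group was 0.56, or 0.39 after centring. Of 24 tested genes that the study itself names for the double transgenic mice, 12 were 2-fold higher and 3 lower. The paper describes such genes mainly from scRNA-seq of spleen and lymph node and from bulk RNA-seq of younger mice. The list was written here with earlier results of these data known and is not independent evidence of a direction. Cd274, the checkpoint ligand PD-L1, was at 111, 200 and 152 CPM against 39.5 CPM. Il10, the cytokine of regulatory and CLL-like B cells, was at 38.6, 81.3 and 70.9 CPM against 17.1 CPM. The paper also reports Ctla4 and Egr1 as enriched in splenic B cells of these mice by scRNA-seq. Here both were 2-fold lower. Ctla4 was at 64.2, 13.5 and 93.6 CPM against 102 CPM, and Egr1 at 97.2, 305 and 605 CPM against 798 CPM.

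Markers of other cells were present in all 4 libraries and moved with some of these groups. In bulk samples, fewer cells of a type and less RNA per cell cannot be told apart. The 23 neutrophil and granule genes summed to 10996, 6279 and 887 CPM in double transgenic mice 1, 2 and 3 and to 975 CPM in the Eµ-TCL1 mouse. Of them 10 were 2-fold higher and 1 lower (median 1.73, centred 1.18). Mpo, myeloperoxidase, was at 3625, 1553.5 and 194 CPM against 97.6 CPM, and Elane, neutrophil elastase, at 933, 435 and 62.0 against 30.9 CPM. Padi4, a histone deiminase of mature neutrophils, was on the other side at 26.5, 51.6 and 22.1 CPM against 165 CPM. In mouse 3 the sum was below that of the Eµ-TCL1 mouse. How much these cells contributed to the interferon and inflammasome values of mice 1 and 2 was not tested.

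Macrophage genes went both ways. C1qb and C1qc, chains of complement C1q, were at 30.8, 42.6 and 13.5 against 1.21 CPM and at 18.3, 26.5 and 6.76 against 1.21 CPM. Apoe, the apolipoprotein abundant in spleen macrophages, was at 2162, 2121 and 2510.1 CPM against 11259.6 CPM (-2.32 ± 0.13). Mertk and Spic, genes of red pulp macrophages, were also lower, at 8.83, 4.67 and 4.29 against 25.3 CPM and at 13.8, 16.3 and 11.5 against 34.0 CPM. The 21 tested genes summed to 11517, 5903 and 4429 CPM against 13121 CPM, and 8 were 2-fold higher and 3 lower (median 0.86, centred 0.74). Apoe alone gave 11259.6 of the 13121 CPM, so the sum was highest in the Eµ-TCL1 mouse although the median was above 0. The 16 tested T lineage genes had 2 members 2-fold higher and 5 lower (median -0.73, centred -0.39). Cd3e, a chain of the T cell receptor complex, was at 7.65, 6.77 and 10.7 CPM against 19.3 CPM, and Lck, a kinase that CLL-like B cells also express, at 167, 702 and 250 against 108 CPM. The list summed to 847, 1395 and 843 CPM against 577 CPM, higher in the double transgenic mice although the median was below 0, and Lck and Cd2 carried most of it. Of 21 erythroid genes 6 were 2-fold higher and 1 lower, and sums were 681, 358 and 402 against 321.5 CPM. NK and cytotoxic genes summed to 198, 184 and 141 CPM against 72.5 CPM over 9 members, megakaryocyte genes to 155, 122 and 102 against 188 CPM over 9, dendritic cell genes to 1980, 2066 and 2451 against 1820 CPM over 15, and stromal genes to 239, 292 and 353 against 247 CPM over 12. For NK, megakaryocyte, dendritic and stromal genes the medians were -0.30, -0.42, 0.05 and -0.63. In that order, the Eµ-TCL1 library was above all 3 in 4, 4, 5 and 7 members and below all 3 in 2, 1, 2 and 1. The NK sum was thus higher in the double transgenic mice although the median was below 0. No list had a tested member at 0 in the Eµ-TCL1 library. The part of any of these cells in the differences was not tested.

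The 4 Eµ-PRMT5 mice offer values on a common scaling of all 8 libraries. Any comparison of them with the Eµ-TCL1 mouse shares that 1 library with the comparison above, so values are given side by side. In the order Eµ-PRMT5, double transgenic and Eµ-TCL1, Ly6a was at 409, 260, 218 and 605 CPM, at 404, 425 and 565 CPM, and at 33.0 CPM. Casp1 was at 63.9, 70.6, 57.0 and 111 CPM, at 79.5, 61.9 and 53.02 CPM and at 6.22 CPM. In both genes the Eµ-TCL1 library stood apart from the other 7. On this scaling the Eµ-PRMT5 mice had 4.46, 25.96, 15.05 and 6.57 CPM of Rgs16, against 182 CPM in the library of the Eµ-TCL1 mouse. Wnt10a was at 14.6, 10.9, 48.8 and 8.53 CPM there and at 571 CPM. Plk2 was at 65.8, 27.7, 13.9 and 29.6 CPM and at 624 CPM. For these 3 genes, too, the high library was the Eµ-TCL1 one. Gbp6 gave another picture, with 5.89, 2.06, 2.96 and 80.3 CPM, then 60.7, 30.6 and 21.5 CPM, and 1.35 CPM, so that 3 Eµ-PRMT5 libraries lay near the Eµ-TCL1 value. The MHC class I genes summed in the same order to 8980, 10910, 10739 and 15842 CPM, to 20273, 14872 and 14679 CPM, and to 6635 CPM.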

How the data were processed

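Bulk RNA-seq of splenic B cells was read from the count matrix. The authors deposited whole-number counts for each gene symbol, with 1 column a mouse and neither scaled nor pooled. The submitters' processing notes name GRCm38, Subread, featureCounts and DESeq2 1.20.0; the annotation and use of strand are not given in the sources used here. The labels describe a stranded mRNA kit and a read target far above the totals found (3356297 to 7290268), and the methods a low-input preamplification, so how the libraries were made is uncertain. The matrix holds both 0 and NA, and NA was not read as 0. Members and gene lists were chosen with earlier results of these data known.

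Counts were filtered (filterByExpr), scaled by TMM and expressed as CPM in edgeR 4.0.16 (R 4.3.3). The difference is the mean log2(CPM + 1) of the 3 Eµ-PRMT5/TCL1 mice minus that of the Eµ-TCL1 mouse, and ± is the SD of the 3. A gene was counted when the Eµ-TCL1 library lay outside the range of the 3 and the difference passed 2-fold (lists) or 4-fold (single genes). The quasi-likelihood test of edgeR and DESeq2 1.42.0 were run with Benjamini-Hochberg adjustment; with 1 Eµ-TCL1 mouse they ask only whether that library lies outside the spread of the others. Code was tested on simulated data. Positions and lengths are from GENCODE vM21 (15645 of 15890 genes matched), and promoters from RefSeq (12171 genes). Level and length groups used the midpoint of both genotypes; the mean over the 4 libraries was tried first and replaced, since 3 libraries outweighed 1.

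Named genes were the 15 of largest difference in each direction past 4-fold with a mean of at least 5 CPM, up to 8 members of each list by absolute difference, the genes the study names, transgene and sort markers, and genes valued in 1 genotype only; other members named in the text were chosen after their values were seen. Alternatives were library size only, upper-quartile and DESeq2 factors, no filter, at least 10 counts in every library, NA as 0, no ribosomal protein genes, pseudocounts of 0.1 and 5 CPM, a fit of all 8 libraries, DESeq2, and leaving out each Eµ-PRMT5/TCL1 mouse. Low-count genes rest on few reads: 1 count was 0.241 CPM in the Eµ-TCL1 library and 0.151 to 0.170 CPM in the others. Some genes the rule covers are not reported here.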

Additional observations from a re-analysis of the deposited data

Results flagged for a closer look

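The report compared rows with a value in all 4 libraries, and signal was also present outside them. In 480 rows the 3 Eµ-PRMT5/TCL1 libraries held a value and the Eµ-TCL1 library held NA, and 195 of these had a mean over 10 counts. Iigp1, an interferon-inducible GTPase, had 686, 214 and 34 counts in the 3 mice. Prss34, a mast cell and basophil protease, had 555, 203 and 127 counts. Pdcd1, the checkpoint receptor PD-1, had 143, 310 and 106 counts, and Dfna5 and Igfbp4 had 226, 205 and 155 and 344, 120 and 44 counts. In 681 rows the reverse held, and 178 of these had over 10 counts in the Eµ-TCL1 library. The highest were Zbtb7c with 114 counts, Rp1 and Slit2 with 111 each, Gm15850 with 106 and Defb42 with 94. What NA stands for is not given in the sources used here, so no fold was computed for these rows.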

How the results depend on the processing

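No paired analysis was possible because the labels name different mice and give no pairing between the groups. Over the alternatives, no named gene past 2-fold changed direction (430 genes followed, 326 past 2-fold). The rule left little room for such a change, so this is not a test of robustness. A gene past 2-fold had the Eµ-TCL1 value outside all 3 and a log2 difference over 1. The largest shift of the median of all genes, with library size only, was -0.40. With library size only, the Eµ-TCL1 library was below all 3 for 2765 genes. Under the same setting there were 4190 genes 2-fold lower in the Eµ-PRMT5/TCL1 mice and 660 higher, 526 4-fold lower and 83 higher, and 4 lists in which members 2-fold higher were as many as or more than the rest, against 13 as reported. edgeR then called 1 gene lower, and its unadjusted p was under 0.05 for 562 genes higher and 3104 lower. With upper-quartile factors these counts were 3477 and 876, 355 and 110, 5 lists, 1 gene lower, and 813 and 2491. With NA as 0 there were 3347 genes 2-fold lower, 573 4-fold lower and 301 4-fold higher. A pseudocount of 0.1 CPM gave 500 genes 4-fold lower, and one of 5 CPM gave 899 2-fold lower, 31 4-fold lower and 88 4-fold higher. The filter of at least 10 counts gave 1 edgeR call lower, and the fit of all 8 libraries 231 genes higher and 571 lower by the unadjusted p. DESeq2 called 193 genes higher and 90 lower, with 953 lower unadjusted. Leaving out 1 Eµ-PRMT5/TCL1 mouse at a time gave 166 to 274 genes 4-fold lower, 0 to 47 edgeR calls higher and 0 to 19 lower; the highest values came without mouse 1 for the first and without mouse 3 for the calls. The smallest adjusted p ranged from 0.000405 to 0.328 over the edgeR settings.

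Some list medians changed sign. That of JAK, STAT and SOCS genes (0.24) was -0.20 with library size only and -0.048 with upper-quartile factors. That of the MYC and MAX network (0.42) was -0.014 with library size only and -0.027 after centring on level and length, that of DNA methylation and Polycomb genes (0.44) was -0.0013 with library size only, that of NK and cytotoxic genes (-0.30) was 0.090 after centring, and that of p53 and its targets (-0.11) ranged from -0.24 to 0.018 when 1 mouse was left out (0.018 without mouse 3). Medians nearer to 0 turned as well: those of B lineage factors, the TNF receptor family, RGS genes, EGR and NR4A genes, PI3K, BCL2, DNA repair, erythroid and dendritic cell genes were 0.0091 to 0.19 as reported and -0.41 to -0.21 with library size only, and those of B lineage factors, PI3K, BCL2, DNA repair and dendritic cell genes were -0.22 to -0.14 after centring. Of 52 list medians, 44 were above 0 as reported, 32 with library size only and 39 after centring. The causes of these changes were not tested beyond what each setting changes by construction. Limits are the 1 Eµ-TCL1 mouse, its depth of 3356297 counts, and a composition that moved with level and length.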
